A study of Mus musculus with 16 samples.

Results

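The E2F and Rb family was examined in RNA of sorted mouse splenic B cells through 9 genes, chosen by symbol out of the 27928 genes of the count table: E2f1, E2f2, E2f3, E2f4, E2f7, E2f8, Rb1, Rbl1 and Rbl2. Follicular (FO) B cells, sorted as CD21 low and CD23 high, and marginal zone (MZ) B cells, sorted as CD21 high and CD23 low, came from young adult C57BL/6 mice that were either wild type (WT) or a Gtf2i conditional knock-out (cKO), homozygous for floxed Gtf2i, the gene of the transcription factor TFII-I, and carrying a Cre that is active in the B lineage. Each of the 4 groups had 2 libraries, and nothing in the labels says whether they came from separate mice, so the p-values measure the spread between libraries, which may be technical. The WT mice are given as plain C57BL/6, with no control group that carried Cre alone, so loss of Gtf2i and presence of Cre cannot be told apart.

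E2F proteins bind DNA near genes needed for DNA replication and mitosis. E2f1, E2f2 and E2f3 are the activating members, E2f4 mainly works as a repressor with pocket proteins, and E2f7 and E2f8 are atypical repressors that bind DNA without a dimerization partner and are themselves made in S phase as E2F targets. Rb1, Rbl1 (p107) and Rbl2 (p130) are the pocket proteins, which hold E2F factors in check until cyclin-dependent kinases phosphorylate them. Resting B cells are the classical setting in which p130 with E2F4 keeps cell cycle genes silent, and MZ B cells are known to enter division faster than FO B cells after stimulation.

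Gene coordinates below are those of GENCODE M21 on GRCm38. Promoter sequences are shown for E2f3, E2f7, E2f8 and Rbl1, because 3 of these 4 genes passed the test between FO and MZ B cells and all 4 hold the letters of an E2F site before the annotated start. RefSeq windows on GRCm38.p6, from 250 bases before to 50 bases after a start, were matched by symbol for 7 of the 9 members, and E2f4 and Rb1 were not matched. The E2F letters searched, on both strands, were TTCCCGC and the variants TTGGCGC and then TTGCCGC and also TTCGCGC. One or more of these stood in 5 of the 9 windows of these 7 members, against 9.57% of all 32851 windows. Only bases before the start are printed, 5′ to 3′ on the gene's own strand, with E2F matches in capitals and positions counted back from -1, the base next to the start.
E2f3, chr13:29986064-29986123, minus strand: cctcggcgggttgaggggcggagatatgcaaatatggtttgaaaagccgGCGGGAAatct
E2f7, chr10:110745189-110745438, plus strand: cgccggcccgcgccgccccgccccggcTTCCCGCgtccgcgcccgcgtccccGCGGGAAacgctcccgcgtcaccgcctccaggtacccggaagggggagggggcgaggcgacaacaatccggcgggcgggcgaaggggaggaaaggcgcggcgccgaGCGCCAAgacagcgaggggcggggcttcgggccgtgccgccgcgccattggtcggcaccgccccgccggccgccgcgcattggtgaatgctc
E2f8, chr7:48881597-48881716, minus strand: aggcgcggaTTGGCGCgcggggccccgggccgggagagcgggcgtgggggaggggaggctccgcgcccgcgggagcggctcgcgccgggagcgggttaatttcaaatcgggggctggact
Rbl1, chr2:157204535-157204594, minus strand: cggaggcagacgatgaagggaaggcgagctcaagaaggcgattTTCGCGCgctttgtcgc
E2f7 held 3 matches, starting at -223, -198 and -92, the most of any member. E2f8 held 1 at -111, Rbl1 held 1 at -17, and E2f3 held 1 at -11 and another after the start. E2f2 held 1 after the start of its first window only. No match stood in the windows of E2f1 and Rbl2, which says only that these letters are not within those windows. The E2f1 window lay inside the gene as annotated by GENCODE. Its bases before the RefSeq start were chr2:154569427-154569676, while the 5′ end of the gene was at 154569892. The bases before that GENCODE start of E2f1 were not searched. The letters of the cell cycle genes homology region (TTTGAA or TTCGAA on either strand, the second of which reads the same on both), a motif known from genes of mitosis, stood in 4 of the 9 windows, those of E2f3, E2f8, Rbl2 and the second window of E2f2, against 19.2% of all windows. They did not overlap an E2F match. These matches describe the sequence, and binding was not measured.

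The libraries held 21546552 to 25083552 reads on genes, a narrow range in which depth went with genotype. Every WT library, at 24467420 or more, was deeper than every cKO library, at 23752077 or fewer. The values given here are normalized counts, that is, reads per gene divided by the library's size factor. All 5 sort markers passed the test in each genotype, with Fcer2a (CD23) higher in FO and Cr2 (CD21), Cd9, Cd1d1 and S1pr3 higher in MZ, and Cd79a, a defining B cell gene, lay between 25439 and 33253. Gtf2i lay between 1523 and 1889 in the 4 cKO libraries and between 1992 and 2864 in the 4 WT libraries. This count covers the whole gene and would include RNA that lacks only the deleted part. Ddx3y, a gene of the Y chromosome, reached no more than 6.34 in WT but 2682 or more in cKO, so sex and genotype cannot be told apart. The cKO MZ replicate 1 library stood apart in blood cell RNA: its summed level of 11 erythroid markers was 16867, against 2365 to 4318 in the other 7 libraries, and that of 14 granulocyte markers was 2052, against 51.5 to 122. The erythroid sums of those 7 libraries were mostly Tfrc, at 2031 to 4035. Hbb-bs, a globin gene, was at 7318 in cKO MZ replicate 1. It was at 548 in cKO FO replicate 2, 305 in cKO MZ replicate 2 and 110 or less in every remaining library. No gene of either list was at 0 in all libraries. Leave-one-out results below therefore include the omission of cKO MZ replicate 1, in places only as part of a range.

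All 9 members passed the filter on low values, a mean of at least 10 normalized counts over the 8 libraries, which left 14761 genes to test. E2f7 was below 10 in 2 FO libraries and passed through its MZ values. Per kilobase of exon, the mean level in WT FO B cells ran from E2f4 (1002) over Rb1 (532), E2f2 (349.9), Rbl2 (330.5), Rbl1 (219), E2f3 (81.9), E2f1 (44.3) and E2f8 (4.34) to E2f7 (1.02). E2f2 and Rbl2 could not be ordered, because the E2f2 libraries, at 266 and 433 per kilobase, lay on both sides of those of Rbl2. In WT MZ B cells the same order held for the means, but Rbl1 (144), E2f3 (142) and E2f1 (125) were no longer separate. Their libraries were at 118 and 169 for Rbl1, at 125 and 158 for E2f3 and at 124 and 127 for E2f1. Thus in FO B cells Rbl1 exceeded E2f1 in level per kilobase in both libraries, whereas in MZ B cells their values overlapped.

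**Figure D1:**
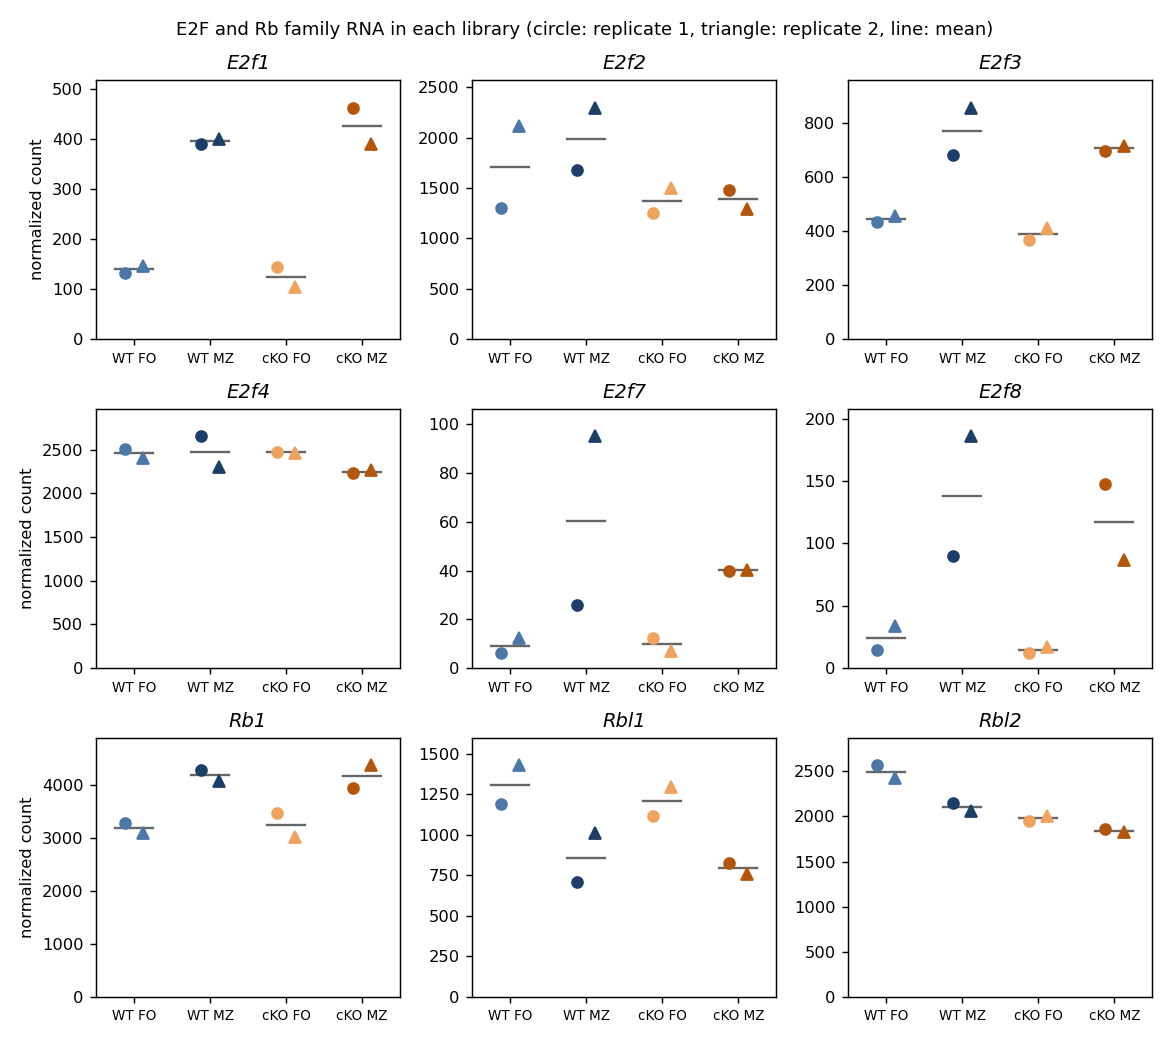
Normalized counts (y axis, from 0) of the 9 members in the 4 groups (x axis), with a circle for replicate 1, a triangle for replicate 2 and a line at the mean. E2f1, E2f3, E2f7 and E2f8 lie higher in both MZ groups than in both FO groups, Rbl1 lies lower, and the 2 MZ libraries of a genotype lie far apart for E2f8 and, in WT, for E2f7.

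To ask how the family differs between the subsets, FO was compared with MZ within each genotype. E2f1, E2f3 and E2f8 were higher in MZ B cells of both genotypes, E2f7 passed the test in WT only, and no member passed as higher in FO. In WT, 4 of the 9 members were called higher in MZ (3, without E2f7, when no filter on low values was used), where 7.41% of all genes tested were, and 0 were called higher in FO, where 4.62% were. In cKO, 3 of the 9 were called higher in MZ, against 8.18% of all genes, and 0 higher in FO, against 5.54%. The test was limma with Benjamini-Hochberg adjustment over all genes, and a call needed an adjusted p of at most 0.05 and a difference of at least 1.5-fold.

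Among the activating members, E2f1 (chr2:154559407-154569892, minus strand) was measured at 133 and 147 in the WT FO libraries and at 390.1 and 399 in WT MZ. In cKO it was at 144 and 105 in FO and at 462 and 389 in MZ. Every MZ library was thus above every FO library of either genotype, and the WT MZ replicates were almost equal. On the log2 scale, E2f1 was lower in FO than in MZ by -1.49 (SE 0.19, adjusted p = 0.00218, limma) in WT and by -1.78 (SE 0.19, adjusted p = 0.000914) in cKO. It was called under each of the 17 alternatives in both genotypes, the one member for which that held.

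For E2f3 (chr13:29906575-29986063, minus strand), also an activator, the WT FO libraries gave 434 and 456 and the WT MZ libraries 681 and 857, and those of cKO gave 366 and 411 for FO and 697 and 715 for MZ. Again the groups did not overlap, but the difference was smaller than that of E2f1. FO minus MZ was -0.78 (SE 0.14, adjusted p = 0.00839, limma) in WT and -0.86 (SE 0.14, adjusted p = 0.00479) in cKO. In WT the call was lost when only the 4 WT libraries were fitted (adjusted p = 0.0539) and when WT MZ replicate 2 and cKO MZ replicate 1 were both left out (adjusted p = 0.107).

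E2f2 (chr4:136172394-136196057, plus strand), the remaining activator, did not follow them. It was at 1300.3 and 2116 in WT FO and at 1679 and 2300.3 in WT MZ, and in cKO at 1248 and 1503 in FO and at 1484 and 1293 in MZ. The FO and MZ libraries overlapped in both genotypes, and in WT the spread between replicates exceeded the difference between subsets. FO minus MZ was -0.24 (95% CI -0.81 to 0.32) in WT and -0.016 (95% CI -0.58 to 0.55) in cKO.

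E2f4 (chr8:105297663-105305370, plus strand), the E2F that partners the pocket proteins in resting cells, had the highest level per kilobase in every group. The WT libraries gave 2509 and 2406 for FO against 2651 and 2298 for MZ, and those of cKO gave 2474 and 2465 against 2229 and 2269. Subsets overlapped in WT, while in cKO both FO libraries lay above both MZ libraries. FO minus MZ was -0.0066 (95% CI -0.22 to 0.21) in WT and 0.14 (95% CI -0.077 to 0.35) in cKO, intervals that leave out a 1.5-fold difference either way.

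The atypical repressors had the widest gaps between subsets and the fewest reads. E2f7 (chr10:110745439-110787384, plus strand) stood at 5.99 and 12.4 in FO against 26.0 and 95.1 in MZ among the WT libraries, and at 12.3 and 7.05 against 39.9 and 40.2 among those of cKO. All 4 MZ libraries were above all 4 FO libraries, but the FO values rest on 6 to 13 reads each. FO minus MZ was -2.40 (SE 0.64, adjusted p = 0.0409, limma) in WT and -1.99 (SE 0.64, adjusted p = 0.0685) in cKO, on the scale of log2(normalized count + 1), which understates changes of low genes. The WT call held under 6 of 17 alternatives, DESeq2 and edgeR among them, and its adjusted p over the 17 ran from 0.00443 to 0.273. It was lost with no filter on low values (adjusted p = 0.0699), through which E2f7 had passed by its MZ values, and when any 1 library other than WT MZ replicate 1 was left out. The cKO difference was called under 5 of 17, again including DESeq2. A difference between genotypes was not detected for E2f7: the interaction was 0.41 (95% CI -1.70 to 2.52, adjusted p = 0.9999, limma), an interval that also holds large differences.

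E2f8 (chr7:48866429-48881596, minus strand) stood at 14.0 and 33.3 in FO against 89.6 and 186 in MZ among the WT libraries, and at 12.3 and 17.1 against 148 and 86.6 among those of cKO. The mean in MZ was 5.82 times that in FO in WT and 7.96 times in cKO, and no FO library reached an MZ library. FO minus MZ was -2.52 (SE 0.52, adjusted p = 0.0159, limma) in WT and -2.88 (SE 0.52, adjusted p = 0.00829) in cKO. E2f8 was not called in WT without WT FO replicate 1, without WT MZ replicate 2 or from the 4 WT libraries alone, nor in cKO without cKO FO replicate 1 or cKO MZ replicate 1. Without WT MZ replicate 2 and cKO MZ replicate 1 together, the differences were -2.00 (adjusted p = 0.129) and -2.50 (adjusted p = 0.0765).

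Of the 3 pocket proteins, Rb1 was higher in MZ and Rbl1 and Rbl2 were higher in FO by their means, and none was called. Rb1 (chr14:73183673-73325822, minus strand) gave 3293 and 3103 for FO against 4294 and 4085 for MZ in WT, and 3477 and 3016 against 3958 and 4381 in cKO. Both MZ groups lay above both FO groups, by 1.31-fold in WT (FO minus MZ -0.39, SE 0.10, adjusted p = 0.0354, limma) and by 1.29-fold in cKO (-0.36, SE 0.10, adjusted p = 0.0405). This passed the adjusted p but not the 1.5-fold threshold.

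For Rbl1 (p107, chr2:157145893-157204534, minus strand), the WT libraries gave 1192 and 1429.9 for FO against 708 and 1013 for MZ, and those of cKO gave 1115 and 1298 against 825 and 760.0. Every FO library lay above every MZ library, and FO minus MZ was 0.62 (SE 0.18, adjusted p = 0.0534, limma) in WT and 0.60 (SE 0.18, adjusted p = 0.0540) in cKO, above the threshold of 0.05. Rbl1 was called higher in FO under 5 of 17 alternatives in WT and 6 of 17 in cKO, by DESeq2 on the recovered reads in both. Without WT MZ replicate 2 the WT difference was 0.88 and was called. Over all alternatives the adjusted p ran from 0.00498 to 0.216 in WT and from 0.00501 to 0.215 in cKO.

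Rbl2 (p130, chr8:91070057-91123844, plus strand) gave 2567 and 2429 for FO against 2154 and 2064 for MZ in WT, and 1952 and 2003 against 1859.9 and 1825 in cKO. FO lay above MZ by 1.18-fold in WT and 1.07-fold in cKO, with FO minus MZ of 0.24 (95% CI 0.060 to 0.43, adjusted p = 0.0763, limma) in WT and 0.10 (95% CI -0.082 to 0.29, adjusted p = 0.410) in cKO. The FO and MZ libraries did not overlap for 7 of the 9 members in WT, where 55.3% of all genes tested did not, and for 8 of 9 in cKO, where 65.0% did not. In these bulk samples, fewer cells with a transcript and less RNA per cell cannot be told apart.

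**Figure D2:**
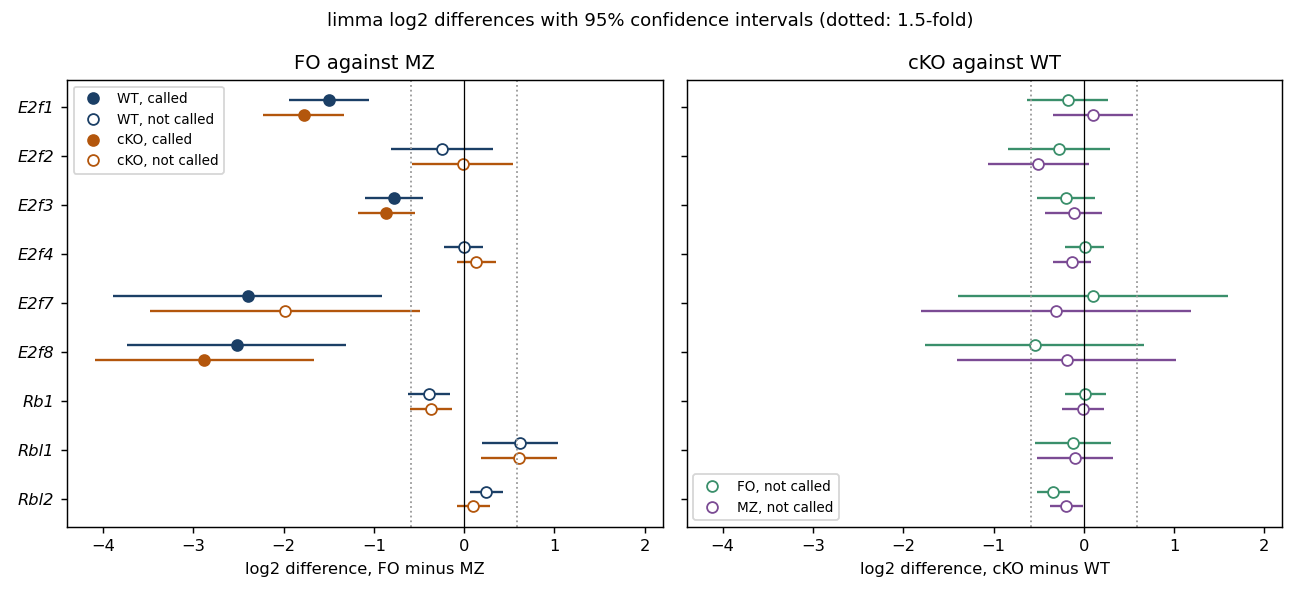
Limma log2 differences (x axis) of the 9 members with 95% confidence intervals, FO minus MZ on the left (blue WT, orange cKO) and cKO minus WT on the right (green FO, purple MZ); filled points passed the test and dotted lines mark 1.5-fold. On the left E2f1, E2f3 and E2f8 are filled in both genotypes and E2f7 in WT, while on the right no point is filled.

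The partners and regulators of the family were read from lists of pathway genes. Of 11 other E2F, DP and MuvB complex genes, 4 were called between FO and MZ, the same 4 in both genotypes. Among all genes tested, 7.41% (WT) and 8.18% (cKO) were called higher in MZ, and 4.62% and 5.54% higher in FO. Higher in MZ were 3 of the 4, Mybl2 (B-Myb), Tfdp1 and E2f6. In WT, only 2 genes of the list were called higher in MZ with quantile normalization or with only the 4 libraries compared. Mybl2 is an E2F target that joins the MuvB complex, and E2f6 is a repressor that does not bind pocket proteins. Tfdp1 is a DP partner, of the kind that activating E2F proteins need to bind DNA. Mybl2 was at 49.9 and 71.4 in WT FO against 241 and 274 in WT MZ, and at 45.9 and 61.4 in cKO FO against 328 and 236 in cKO MZ. For Mybl2, FO minus MZ was -2.09 (SE 0.27) in WT and -2.37 (SE 0.27) in cKO.

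Tfdp1 was at 249 and 356 in WT FO against 780.1 and 999.8 in WT MZ, and at 344 and 261 in cKO FO against 1060.5 and 785 in cKO MZ. Its FO minus MZ difference was -1.56 in WT and -1.60 in cKO, close in size to that of E2f1. Tfdp2, another DP gene of the list, was not called and lay the other way. It was at 809 and 844 in WT FO against 598 and 696 in WT MZ, and at 861 and 740.8 in cKO FO against 740.6 and 644 in cKO MZ. Lin54, the DNA-binding subunit of MuvB, was the gene called higher in FO, by 0.64 and 0.67. It was not called in WT without WT FO replicate 1 or either WT MZ library or with only the 4 libraries compared, nor in cKO without cKO FO replicate 1 or either cKO MZ library. E2f5, which like E2f4 pairs with pocket proteins, was at 309 to 341 in WT MZ and 363 to 480.0 in WT FO and was not called (adjusted p = 0.182 in WT, limma). The median of all 11 was 0.14 in WT and 0.094 in cKO, against 0.0048 and 0.0047 over all genes tested.

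Of 9 G1 cyclins and their kinases, 2 were called, both higher in MZ in both genotypes: Cdk4, a kinase of the pocket proteins, with FO minus MZ of -0.62 and -0.63, and Cdc25a, a phosphatase that activates cyclin-dependent kinases and is an E2F target, with -0.98 and -0.84. Of 7 inhibitors of these kinases, 5 were tested and 2 were called, both higher in FO. Among all genes tested, 7.41% (WT) and 8.18% (cKO) were called higher in MZ, and 4.62% and 5.54% higher in FO. Cdkn1a (p21) was at 119 and 52.3 in WT FO against 14.4 and 19.0 in WT MZ, and at 84.0 and 63.4 in cKO FO against 17.9 and 10.3 in cKO MZ. Cdkn2d (p19Ink4d) was at 884 and 973 in WT FO against 200.3 and 352 in WT MZ, and at 804 and 933 in cKO FO against 306 and 189 in cKO MZ. FO minus MZ was 2.18 and 2.34 for Cdkn1a, and 1.80 and 1.85 for Cdkn2d. Cdkn1b (p27) had FO minus MZ of 0.43 and 0.36, below 1.5-fold. Leaving out 1 library at a time gave 1 to 3 (WT) and 1 to 2 (cKO) called cyclins and kinases and 1 to 2 called inhibitors. The low counts came, for cyclins and kinases, without WT FO replicate 1, WT MZ replicate 2, cKO FO replicate 1 or either cKO MZ library, and for inhibitors without WT FO replicate 1, WT MZ replicate 1, cKO FO replicate 1 or cKO MZ replicate 2. The list medians were 0.045 and -0.18 for the cyclins and kinases and 1.23 and 0.36 for the inhibitors, in WT and cKO.

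E2F target genes of G1/S, which make and copy DNA, were called higher in MZ for 5 of 34 in WT and 10 of 34 in cKO, with none higher in FO. All 5 called in WT were among the 10 of cKO: Uhrf1, Chaf1b, Tk1, Tyms and Mcm10. The median of the 34 was -0.39 in WT and -0.49 in cKO. Of 25 G2/M genes, which act in mitosis, 14 were called higher in MZ in each genotype, 12 of them in both, with medians of -1.98 and -2.03. With only the 4 libraries compared, 0 (WT) and 19 (cKO) of them were called, and with no filter on low values 6 and 11. For both lists, the share of all genes tested that was called higher in MZ was 7.41% in WT and 8.18% in cKO. These counts rested on single libraries, in cKO on cKO MZ replicate 1 among others. Leaving out 1 library at a time gave 0 to 18 called G2/M genes in either genotype, 2 to 7 called G1/S genes in WT and 1 to 12 in cKO. Without WT MZ replicate 2 and cKO MZ replicate 1 together, 0 (WT) and 1 (cKO) G2/M genes and 1 and 3 G1/S genes were called. The same omission left E2f1 called in both genotypes, with -1.48 (adjusted p = 0.0395, limma) in WT and -1.65 (adjusted p = 0.0299) in cKO.

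To ask whether deletion of Gtf2i changed the family, cKO was compared with WT in each subset. No member was called in MZ, where 0.0339% of all genes were, in FO, where 0.0677% were, or over both subsets with subset as a term, where 0.149% were. The interaction of genotype and subset called 0% of genes. None of the members was called by DESeq2 or edgeR on the recovered reads either. At an unadjusted p under 0.05 there was 1 member in MZ, 1 in FO, 2 over both subsets and 0 for the interaction.

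Rbl2 was the member with the smallest p in both subsets. Its 4 cKO libraries, at 1825 to 2003, all lay below its 4 WT libraries, at 2064 to 2567. The cKO minus WT difference was -0.34 (95% CI -0.52 to -0.15) in FO and -0.19 (95% CI -0.38 to -0.011) in MZ. Over both subsets it was -0.27 (SE 0.055, unadjusted p = 0.00104, adjusted p = 0.207, limma), which is 1.20-fold. Its adjusted p over the alternatives ran from 0.0118, by DESeq2, to 0.619, and in none did it reach 1.5-fold. Its exons share 693 bases with Aktip and 892 with Gm45464 on the opposite strand, those of Rb1 488 with Rcbtb2 and 408 with Lpar6, those of E2f8 610 with Gm2788 and those of E2f7 86 with 1700020G17Rik. Whether reads were counted by strand is not stated, so reads of these stretches cannot be assigned to 1 gene.

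E2f2 was the other member under an unadjusted p of 0.05 over both subsets. Its cKO MZ libraries, at 1293 and 1484, lay below its WT MZ libraries, at 1679 and 2300.3, whereas in FO the genotypes overlapped. Over both subsets, cKO minus WT was -0.39 (95% CI -0.76 to -0.018, adjusted p = 0.587, limma). For the other 7 members the largest difference was that of E2f8 in FO, -0.55 (95% CI -1.76 to 0.67). The intervals of E2f1, E2f3, E2f4, Rb1, Rbl1 and Rbl2 in MZ left out a 1.5-fold decrease, while those of E2f2, E2f7 and E2f8 did not. In FO that of E2f1 (-0.63 to 0.27) did not either. Libraries of the genotypes did not overlap in MZ for 3 members, E2f2, E2f4 and Rbl2, against 34.5% of all genes, and in FO for 2, E2f3 and Rbl2, against 24.0%. All 5 pathway lists together also held 0 genes called between genotypes in either subset, by limma and by DESeq2.

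Between the 2 libraries of an MZ group, part of the family shifted, for some members in opposite directions in the 2 genotypes. The labels do not pair the replicate numbers, so the direction alone cannot be compared between genotypes. In WT MZ, replicate 2 was higher than replicate 1 for E2f7 by 1.83 on the log2 scale, for E2f8 by 1.04, for Rbl1 by 0.52, for E2f2 by 0.45 and for E2f3 by 0.33. E2f1 (0.034), Rbl2 (-0.061), Rb1 (-0.072) and E2f4 (-0.21) moved little or the other way. In cKO MZ, replicate 2 was lower than replicate 1 for E2f8 (-0.76), E2f1 (-0.25), E2f2 (-0.20), Rbl1 (-0.12) and Rbl2 (-0.027), while Rb1 (0.15), E2f3 (0.037), E2f4 (0.026) and E2f7 (0.012) were at or above 0.

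Counting error does not cover the shifts of E2f8. Its WT MZ libraries had Poisson 95% intervals of 72.3 to 109.7 and 161 to 213, and its cKO MZ libraries 125 to 173 and 69.1 to 107. E2f7 also fell outside counting error in WT MZ, at 17.1 to 37.8 against 77.8 to 115, but not in cKO MZ, at 28.5 to 54.3 against 28.6 to 55.0. Such shifts were not particular to E2f7 and E2f8. E2f2 fell outside counting error in both MZ groups, at 1601 to 1759 against 2212 to 2392 in WT and 1410 to 1561 against 1222 to 1367 in cKO. E2f3, E2f4 and Rbl1 did so in WT MZ only, and Rb1 in cKO MZ only. These intervals cover counting error only, since reads copied by PCR are not independent molecules.

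The G2/M genes shifted in the same sense as E2f8. All 25 were higher in WT MZ replicate 2 (median 1.09) and all 25 were lower in cKO MZ replicate 2 (median -1.24). Replicates 1 and 2 of WT MZ had summed levels of 6088 and 14608, and those of cKO MZ 12042 and 5153, against 2200.3 to 3583 in FO. Of the 34 G1/S genes, 27 were higher in both WT MZ replicate 2 and cKO MZ replicate 1, as were 4 of the 9 members (E2f1, E2f2, E2f8 and Rbl1), while 2 members, E2f4 and Rb1, had the reverse pattern. Over all genes tested, 29.2% had the pattern of E2f8, and 4496 of 14761 had the reverse pattern.

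**Figure D3:**
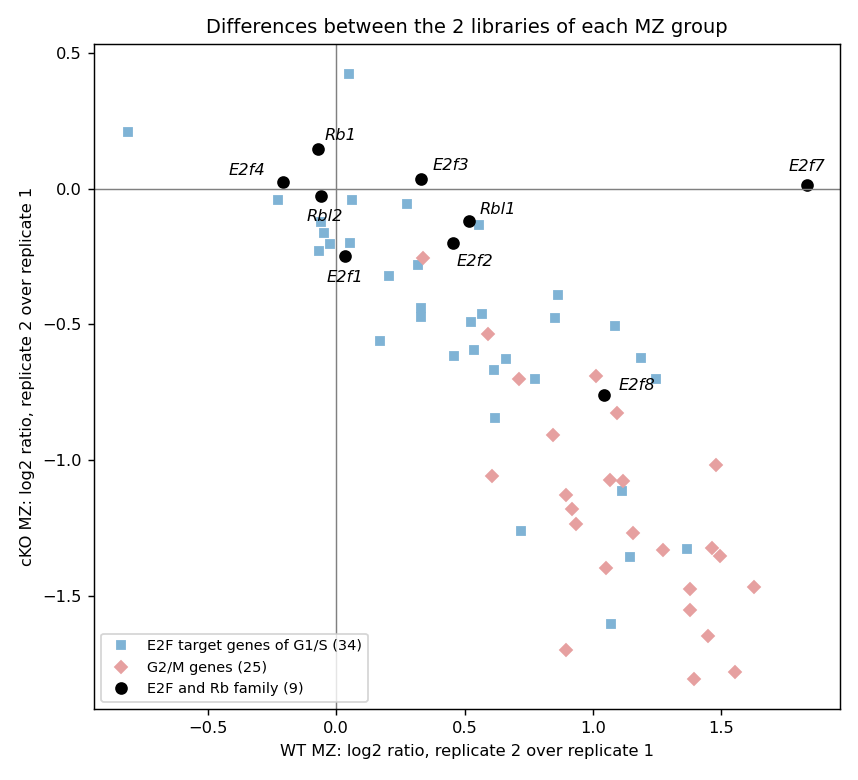
Log2 ratio of replicate 2 over replicate 1 in WT MZ (x axis) and in cKO MZ (y axis) for the 9 members (black circles), 34 G1/S E2F target genes (blue squares) and 25 G2/M genes (red diamonds). All G2/M genes and E2f8 lie in the lower right part, E2f7 lies far to the right on the zero line of cKO MZ, and E2f1, E2f4, Rb1 and Rbl2 lie near the centre.

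Other transcripts moved with these libraries. The higher library for E2f8 in cKO MZ, replicate 1, is the one with the high erythroid and granulocyte sums, and all 10 granulocyte and all 11 erythroid markers that passed the filter were lower in replicate 2 there. In WT MZ, where replicate 2 was the higher library for E2f8, the granulocyte sum was 101 in replicate 1 and 60.7 in replicate 2. The erythroid sum there, 2365 and 2428, was mostly Tfrc, the transferrin receptor gene, at 2249 and 2031. Of the 11 erythroid markers 9 were higher in WT MZ replicate 2 (median 1.75), with the globin gene Hbb-bs at 28.9 and 110 and Slc4a1, a red cell membrane gene, at 3.85 and 31.7. Over both genotypes, 9 of 11 erythroid and 6 of 8 tested T cell and macrophage markers were higher in both WT MZ replicate 2 and cKO MZ replicate 1, as E2f8 was, against 29.2% of all genes tested. Lck, the only T cell gene of those 8, was not among the 6. The pattern held for only 1 of 10 granulocyte, 2 of 11 plasma cell and germinal centre and 1 of 5 sort markers.

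Of 11 tested plasma cell and germinal centre markers 8 were higher in WT MZ replicate 2, and of 8 tested T cell and macrophage markers 7 were, with the macrophage gene C1qa at 29.9 and 113. The T cell genes Cd3e, Cd3d, Cd3g, Cd4, Cd8a and Thy1 did not pass the filter on low values. Lck, the T cell gene that did, was at 864 and 1170 in WT MZ and at 692 and 766 in cKO MZ. The plasma cell genes did not move as 1 group: Jchain was at 305 and 3692, but Irf4 was at 37342 and 13512, Prdm1 at 594 and 279 and Xbp1 at 2947 and 2789. The summed levels of the 12 plasma cell and germinal centre genes were 42254 and 21714, mostly Irf4, and those of the 14 T cell and macrophage genes 1541 and 2621. Between FO and MZ, the same genes of these 2 lists were called in both genotypes: Bcl6, Prdm1, Sdc1 and Cd68. Of the granulocyte markers 0 were called in WT and 2 in cKO, and of the erythroid markers 1 and 2. In FO, E2f8 was higher in replicate 2 by 1.20 in WT and by 0.44 in cKO, on 11 to 35 reads a library. There too 9 of 11 erythroid markers were higher in replicate 2, in WT (median 1.26) and in cKO (median 2.29, Hbb-bs at 21.3 and 548), whereas of the 25 G2/M genes 22 were in WT and 12 in cKO. The part of these transcripts in the shifts of E2f7 and E2f8 was not tested.

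**Figure D4:**
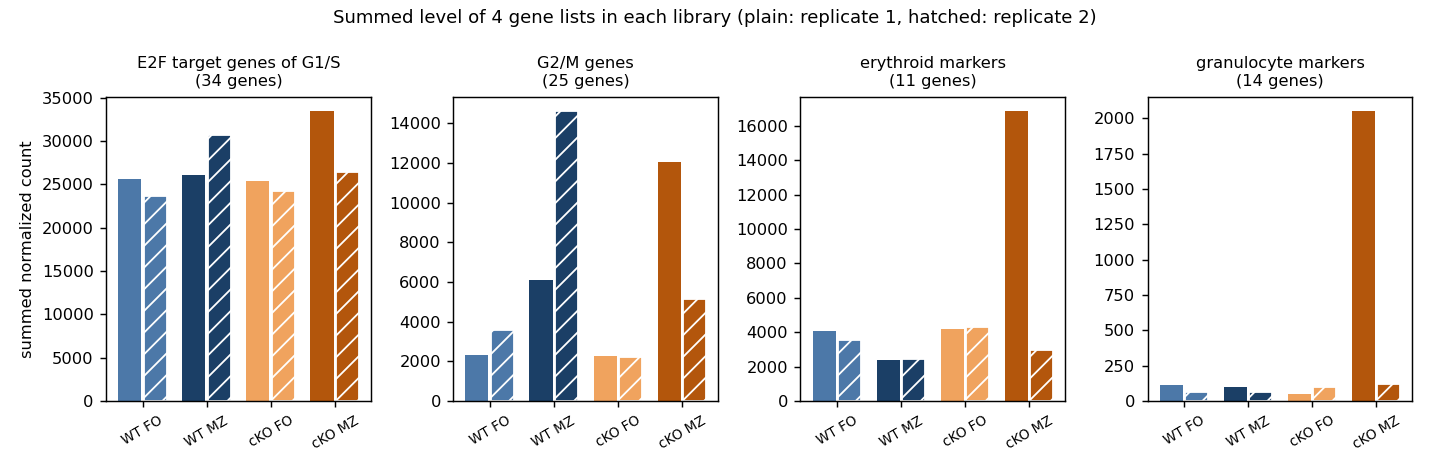
Summed normalized counts (y axis, from 0) of 4 gene lists in the 4 groups (x axis), with plain bars for replicate 1 and hatched bars for replicate 2. The G2/M sum is highest in WT MZ replicate 2 (14608) and cKO MZ replicate 1 (12042), and the erythroid and granulocyte sums are high in cKO MZ replicate 1 alone among the 8 libraries.

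Over the 8 libraries, the genes with the pattern most like each member were sought by the root mean square difference of centred log2 values. For E2f1 these were Zfr2 (0.075), Zfp580 and Carmil1, where the median over all genes tested was 0.87. For E2f8 they were Esco2 (0.18), Mpeg1 and Kntc1, against a median of 1.46, and for E2f7 they were Gm16027 (0.27), Cd80 and Rnf144b, against 1.26. For E2f2 they were Cxcr5 (0.090), Gm37274 and Cbx6, against 0.40, and for Rbl1 they were Mapk3 (0.059), Cmtm6 and Plp2, against 0.43. No gene was among the nearest 3 of more than 1 member, and those of E2f1, E2f7 and E2f8 were different genes. The nearest 3 were picked as the smallest of all distances. That they lie under the median was therefore fixed in advance and does not show unusual closeness.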

How the data were processed

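RNA of FACS sorted FO and MZ B cells was depleted of ribosomal RNA and sequenced by the authors as 50 bp single-end reads. Per the study's methods and processing notes, reads were aligned to mm10 with HISAT2 and counted with featureCounts and htseq-count. The authors deposited a table of counts normalized with DESeq2 size factors, a signal that is not whole numbers. Tool versions, annotation and strand setting are not given in the sources used here. In all 8 libraries, 100% of values were whole multiples of 1 step (tolerance 0.01), which gave back the reads. ATAC-seq samples (8) were not analysed here.

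Values were analysed as log2(normalized count + 1) for the 14761 genes with a mean of at least 10, with limma 3.58.1 in R 4.3.3 (trend, 1 mean per group, 8 libraries in 1 fit, two-sided). Calls needed 1.5-fold or more and, after Benjamini-Hochberg adjustment, p no higher than 0.05. DESeq2 1.42.0 and edgeR 4.0.16 (quasi-likelihood) on the recovered reads, a pseudocount of 0.5, no filter, quantile normalization, only the 4 libraries compared, no fold or a 2-fold cutoff, a replicate block and leaving out each library in turn were alternatives. The scripts were tested on simulated data. The members, gene lists and tests were chosen with earlier results of these data known. Named genes were the 9 members, Gtf2i, genes of the lists and, for 5 members, the 3 genes nearest in pattern. The genes Cd79a and Ddx3y were named after their values were seen. Gene models were GENCODE M21 on GRCm38 and promoters RefSeq on GRCm38.p6.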

Additional observations from a re-analysis of the deposited data

How the results depend on the processing

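The direction was kept in 611 of 639 alternative values of 39 member results; 28 reversed, 24 of them where a library was left out. The cause was not tested. For the 9 members between WT FO and WT MZ, 4 were called in the report, 1 with only the 4 libraries compared, 2 without WT MZ replicate 2 and cKO MZ replicate 1 (an omission chosen after seeing the data) and 2 to 4 when each library was left out in turn, which leaves a group with 1 library that is assumed to vary like the others. Between cKO FO and cKO MZ, 3 were called in the report, 5 with only the 4 libraries compared, 5 by DESeq2 and 2 to 5 when each library was left out. The labels do not pair the libraries, and deviations of equal numbers correlated at 0.59 between WT FO and WT MZ, -0.30 between WT MZ and cKO MZ and -0.0015 between cKO FO and cKO MZ. With a replicate block, 5 members were called in WT and 4 in cKO, Rbl1 among them in both, and with the cKO MZ numbers exchanged, a pairing chosen after seeing the data, 5 in cKO. Between genotypes, 0 members were called under every alternative run, while over all genes DESeq2 called 50 in MZ (edgeR 4, limma 5), 25 in FO (9 and 10) and 77 over both subsets (21 and 22). DESeq2 called 21 (WT) and 22 (cKO) of the 25 G2/M genes higher in MZ, 9 and 13 of the G1/S genes higher in MZ and, in cKO, 1 higher in FO. Reversed log2 differences that left out no single library were E2f2 in cKO, FO minus MZ, 0.083 without both MZ libraries, Rb1 in MZ, cKO minus WT, 0.049 with quantile normalization and 0.0048 by edgeR, and E2f7 in FO, cKO minus WT, -9.36e-05 with quantile normalization. Leaving out each library in turn, FO minus MZ in WT ran from -0.60 to 0.11 for E2f2 and from -0.11 to 0.097 for E2f4, and in cKO from -0.15 to 0.12 for E2f2. In MZ, cKO minus WT then ran from -0.022 to 0.23 for E2f1, -0.28 to 0.051 for E2f3, -1.23 to 0.60 for E2f7, -0.71 to 0.33 for E2f8, -0.082 to 0.065 for Rb1 and -0.35 to 0.16 for Rbl1. In FO it ran from -0.41 to 0.050 for E2f1, -0.63 to 0.075 for E2f2, -0.023 to 0.038 for E2f4, -0.37 to 0.57 for E2f7, -1.14 to 0.053 for E2f8, -0.084 to 0.12 for Rb1 and -0.25 to 0.014 for Rbl1. The interaction of E2f7 ran from -0.50 to 1.33. Depth limits E2f7 and E2f8 in FO, which rest on 6 to 35 reads a library.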
